A study of Mus musculus with 12 samples.

Results

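The response of the microRNA (miRNA) population to 12 h of tunicamycin was measured in mouse embryonic fibroblasts (MEFs) without ATF4. The comparison took the 2 arrays of ATF4 knockout (KO) cells treated for 12 h and the 2 arrays of untreated KO cells, chosen by their titles, out of 12 arrays in the series. All 611 mouse miRNA names on the array were members, of which 145 were bright enough to test and 466 were too dim. Among the 611, 100 were well above background on all 4 KO arrays and 174 on at least 1 of them.

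The MEFs were of the C57BL/6 background strain and carried the ATF4KO genotype in both groups, so the absence of ATF4 was shared by treated and untreated cells. The treated group received 2 ug/mL tunicamycin in culture medium for 12 h, and the untreated group is labelled UT and control. The design text describes the arrays of a time point as coming from independent experiments, and the labels do not say whether the KO cells are 1 line or several. Wild-type MEFs (ATF4WT) under the same treatments, and a 24 h time point in both genotypes, make up the other 8 arrays. Atf4 mRNA is not measured on a miRNA array, so the genotype labels could not be checked against the data.

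miRNAs are short RNAs that guide Argonaute proteins to messenger RNAs, mainly through pairing of the seed, bases 2 to 8 of the mature strand, and thereby lower the output of their targets. Tunicamycin blocks N-linked glycosylation, so that unfolded proteins build up in the endoplasmic reticulum (ER) and the unfolded protein response starts. ATF4 is the transcription factor whose translation rises when the PERK branch of that response phosphorylates eIF2alpha, and it drives genes of amino acid supply, redox balance and, under lasting stress, cell death.

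The mature sequences of the miRNAs on which the results turn are given first, from RefSeq (GRCm38.p6), 5′ to 3′, with the seed in capitals. The arm of each array name was assigned by the older naming convention, and all 40 names so assigned were matched in the RefSeq table. The first set holds miRNAs that had lower values after treatment, among them miR-221 and miR-222 with 1 shared seed, miR-24 with the opposite strand of the miR-24-1 hairpin (miR-24-1*), and miR-93 with miR-20a. miR-106b, which did not have lower values, is shown with them for its shared seed.
miR-455: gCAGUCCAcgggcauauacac
miR-24-1*: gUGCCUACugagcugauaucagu
miR-24: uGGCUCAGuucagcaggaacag
miR-33: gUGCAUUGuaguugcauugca
miR-99b: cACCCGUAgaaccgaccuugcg
miR-93: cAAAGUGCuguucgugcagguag
miR-20a: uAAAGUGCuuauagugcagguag
miR-106b: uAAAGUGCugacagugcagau
miR-221: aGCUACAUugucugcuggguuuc
miR-222: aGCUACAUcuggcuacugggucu
miR-199a-5p: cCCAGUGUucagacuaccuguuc
miR-199a-3p: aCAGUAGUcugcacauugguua
miR-214: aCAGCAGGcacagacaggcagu
miR-7a: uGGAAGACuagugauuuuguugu

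The second set holds miRNAs that had higher values after treatment, among them 4 let-7 members and 2 miR-34 members, each family with 1 shared seed. miR-146a, which was at the floor on all KO arrays compared, is shown beside miR-146b for its shared seed.
miR-146b: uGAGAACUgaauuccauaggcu
miR-146a: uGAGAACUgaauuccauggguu
miR-210: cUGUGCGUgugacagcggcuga
miR-423-5p: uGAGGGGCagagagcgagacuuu
miR-129-3p: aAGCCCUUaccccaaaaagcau
miR-148a: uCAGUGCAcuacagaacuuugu
let-7a: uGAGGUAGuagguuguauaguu
let-7b: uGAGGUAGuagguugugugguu
let-7c: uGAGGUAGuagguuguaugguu
let-7i: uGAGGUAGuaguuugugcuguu
miR-34a: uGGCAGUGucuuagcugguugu
miR-34b-5p: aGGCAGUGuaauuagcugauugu
miR-26b: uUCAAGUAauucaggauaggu
miR-301a: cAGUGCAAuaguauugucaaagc
miR-350: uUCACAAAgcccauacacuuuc

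Values are log2 scaled signals: the summed probe signal of a miRNA over the array's 75th percentile, so that 0 is the level of that percentile, with a floor at -4.96. They compare arrays for 1 miRNA and give no order between miRNAs. Across the series 92 to 164 mouse miRNAs were well above background per array, with 132 and 141 on the untreated KO arrays and 134 and 133 on the treated ones, and 0 spots were saturated. The 75th percentile itself was 709.5 and 791.2 on the untreated KO arrays and 515.4 and 417.9 on the treated ones. All untreated arrays of the series shared 1 slide, and the arrays of treated cells a second one. Slide and treatment therefore cannot be told apart. Of 10 fibroblast markers, 9, 9, 9 and 8 were well above background on the 4 KO arrays, with summed scaled signals of 39.3 and 39.0 untreated and 35.1 and 33.6 treated. Epithelial, blood, muscle, neural and pluripotent-cell markers had 0 members well above background on these arrays, and of the endothelial markers 1 reached it on 1 treated array. With bulk RNA, fewer cells of a type and less RNA per cell cannot be told apart.

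After 12 h of tunicamycin, 1 miRNA passed the threshold in KO cells, miR-455, which was lower. With limma over all 6 groups and Benjamini-Hochberg adjustment, 1 of 145 tested miRNAs (0.690%) had an adjusted p below 0.05, 0 higher and 1 lower. At an unadjusted p below 0.05 there were 21 (14.5%), 9 higher (6.21%) and 12 lower (8.28%). The 2 treated arrays lay outside the range of the 2 untreated ones for 86 miRNAs (59.3%), 45 above (31.0%) and 41 below (28.3%). Most differences were small: the median over the 145 was 0.06, 101 were under 0.5 in size, and 19 were over 1, of which 18 were higher. The standard errors ran from 0.06 to 2.93 with a median of 0.24.

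miR-455, whose gene Mir455 lies within the span of the collagen gene Col27a1, is best known from cartilage. Its log2 scaled signals were -3.69 and -3.76 untreated and -4.96 and -4.96 treated. Both treated values were at the floor, and the groups did not overlap. The log2 difference was -1.23 ± 0.06 (SE, n = 2 arrays per group, adjusted p = 3.88e-05). The floor sets its size: it was -0.23 with the floor doubled and -1.88 with it halved, both past the threshold. Its brighter probe gave unscaled signals of 48.6 and 49.9 untreated and 13.8 and 8.33 treated, and it was well above background on 1 of the 2 treated arrays. All arrays of the other groups were also at the floor, so the small standard error comes from arrays without variation. The mature strand is at chr4:63256904-63256924 on the plus strand of GRCm38.p6.

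The count of calls depended on which arrays entered the fit and on how their spread was estimated. Fitted without the 24 h groups, 16 miRNAs passed (11.0%), 6 higher (4.14%) and 10 lower (6.90%), and without either KO 24 h array alone 14 passed, 6 higher and 8 lower. The 10 lower were miR-455, miR-24-1*, miR-24, miR-33, miR-99b, miR-199a-5p, miR-199a-3p, miR-214, miR-27b and miR-7a. The 6 higher were miR-146b, miR-129-3p, miR-34c, miR-34b-5p, let-7i and miR-99a. The log2 differences are the same with and without the 24 h groups, and only the estimated spread differs. The pooled SD over all tested miRNAs was 0.128 in untreated KO, 1.109 in KO at 12 h and 0.954 in KO at 24 h. In wild type it was 0.153 untreated, 1.226 at 12 h and 0.513 at 24 h. It was thus larger at 12 h than at 24 h, and the calls rest on the spread of each miRNA instead. For example, miR-199a-5p had an SD of 0.14 in KO at 12 h and 0.90 at 24 h, and miR-24 of 0.07 and 0.03. With array quality weights 24 passed (16.6%), 12 higher (8.28%) and 12 lower (8.28%), and with only the 2 KO groups in the fit 4 passed (2.76%), all lower: miR-455, miR-143, miR-362-5p and miR-7a. The adjusted p-values below are those of the fit with all 6 groups unless the sentence names another.

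**Figure D1:**
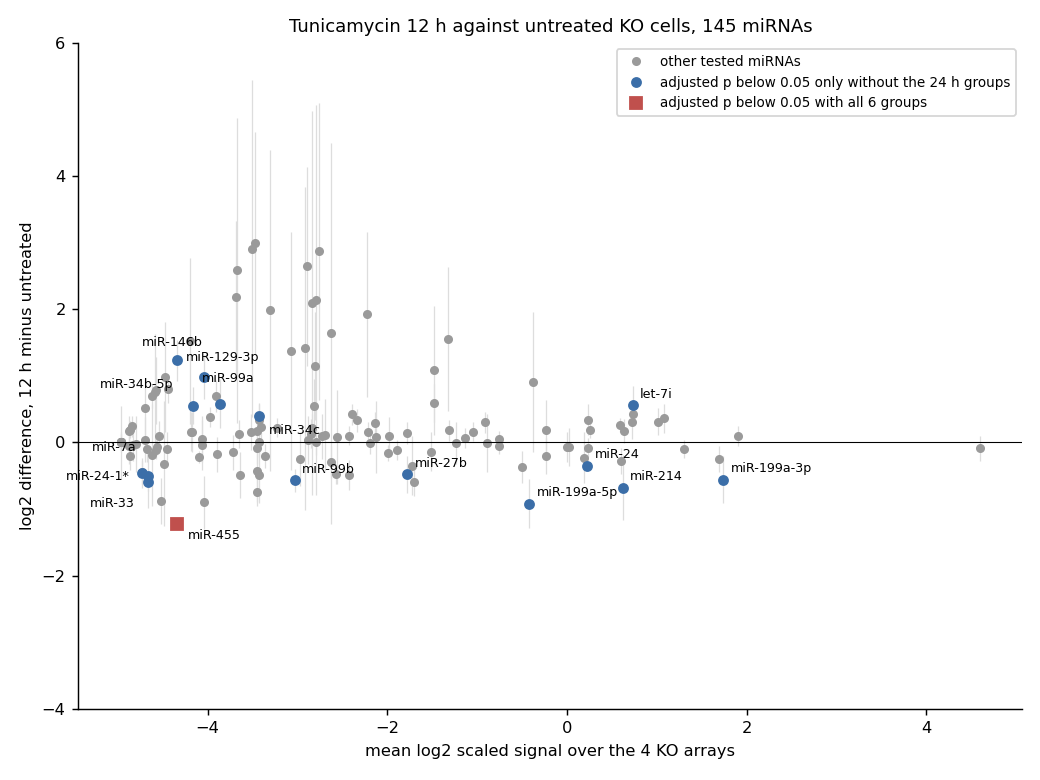
Log2 difference between 12 h tunicamycin and untreated KO cells (vertical axis) against the mean log2 scaled signal over the 4 KO arrays (horizontal axis) for the 145 tested miRNAs, with bars of 1 SE. The square marks miR-455, the 1 call with all 6 groups, at -1.23, and the other labelled points are the calls made without the 24 h groups.

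The direction of many differences depended on the scaling. The median log2 difference of the 145 was 0.06 here, -0.08 with median scaling, -0.38 with quantile normalization, -0.59 with the 75th percentile of all 611 mouse miRNAs (the all-miRNA percentile) and -0.58 with no scaling. Each of the 10 miRNAs with the smallest p on the lower side had a negative difference under all 4 other scalings. Of the 10 on the higher side, miR-146b, miR-210, miR-423-5p and miR-129-3p stayed positive under all 4, with 0.66, 0.12, 0.11 and 0.29 with no scaling. The other 6 were negative under at least 1 of them, and "higher" is there relative to the other miRNAs of the array. The background correction and the measure bear on the 4 that stayed positive: with normexp they were at -0.83, -0.93, -0.87 and -0.79. The median of the 145 with normexp was -0.65. An alternative chosen after seeing the data was normexp without spots of outlying local background. There miR-146b, miR-210 and miR-423-5p were at 0.32, 0.21 and 0.25, around a median of 0.22. With total gene signal miR-146b, miR-423-5p and miR-129-3p were at -0.09, -0.62 and -0.25, and with the deposited table at -0.72, -1.25 and -0.88. With the floor doubled miR-210 was at 0.

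**Figure D2:**
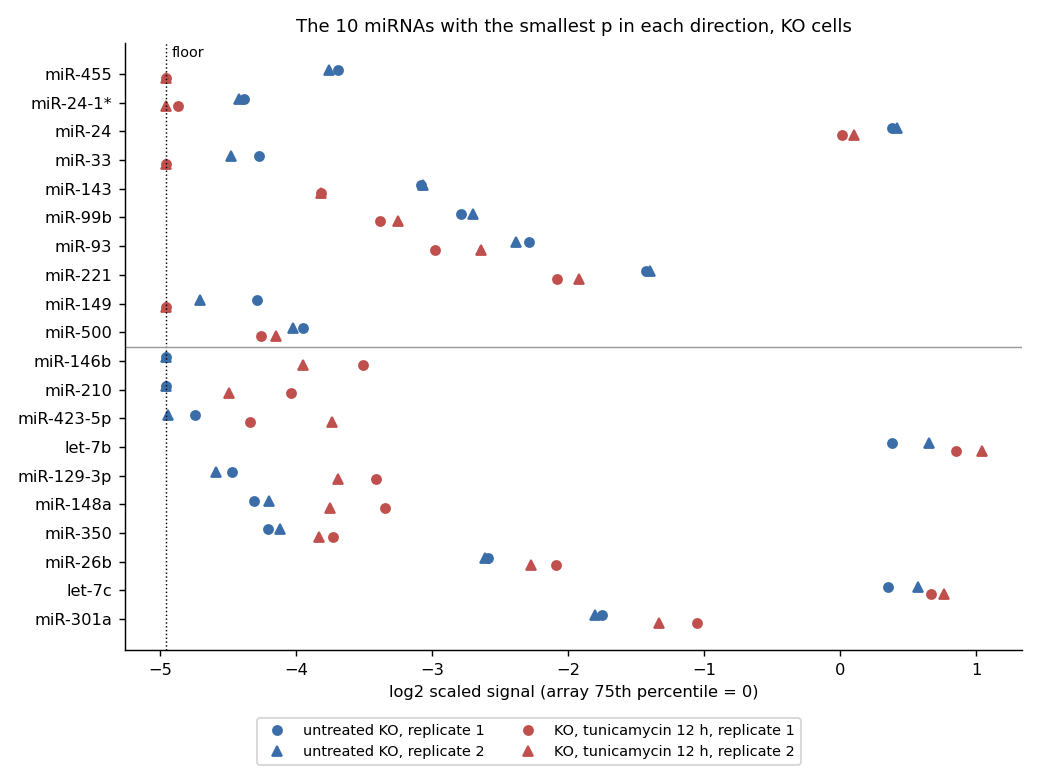
Log2 scaled signal on each of the 4 KO arrays for the 10 miRNAs with the smallest p on the lower side (top) and on the higher side (bottom), circles for replicate 1 and triangles for replicate 2, with the floor of -4.96 as a dotted line. The 2 treated arrays lie outside the 2 untreated ones in every row, and for miR-455, miR-33, miR-149, miR-146b and miR-210 one group sits at the floor.

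Both mature strands of the miR-24-1 hairpin had lower values in treated cells. miR-24-1* gave -4.38 and -4.42 untreated and -4.87 and -4.96 treated. Both of its treated arrays were below both untreated ones, and the log2 difference of -0.51 ± 0.09 had an adjusted p of 0.0503, or 0.0169 without the 24 h groups. miR-24, which is also made from a gene on another chromosome and restrains cell cycle genes, gave 0.38 and 0.42 untreated and 0.01 and 0.10 treated. The groups did not overlap, and its log2 difference was -0.35 ± 0.08 (adjusted p = 0.131, or 0.0406 without the 24 h groups). Both probes of each of these miRNAs were lower.

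The other members of the miR-23, miR-27 and miR-24 clusters did not share 1 direction. Of the 6 tested members, 4 had negative and 2 positive differences, with a median of -0.31 against 0.06 over all 145, and 0 passed the threshold with all groups. miR-27b gave -1.51 and -1.56 untreated and -2.05 and -1.99 treated, a log2 difference of -0.48 ± 0.28 (adjusted p = 0.549, or 0.0169 without the 24 h groups). miR-27a, of the same family and a regulator of fat cell formation, gave 0.80 and 0.69 against 0.44 and 0.48, a difference of -0.28 ± 0.19. In neither did the treated and untreated arrays overlap. miR-23a and miR-23b had differences of 0.17 ± 0.18 and 0.19 ± 0.44, which turn negative with each of the other scalings.

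miR-33, which lies within the span of the sterol regulator gene Srebf2 and targets cholesterol export genes, gave -4.27 and -4.48 untreated and was at the floor on both treated arrays. Its log2 difference was -0.59 ± 0.14 (adjusted p = 0.131, or 0.0169 without the 24 h groups). The brighter probe had unscaled signals of 31.8 and 31.7 untreated and 12.9 and 9.88 treated, and the dimmer probe was not well above background on any of the 4 arrays.

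miR-199a and miR-214 are mesenchymal miRNAs, and their genes Mir199a-2 and Mir214 lie together within the span of Dnm3 and its antisense transcript Dnm3os. The same miR-199a strands also come from Mir199a-1 on chromosome 9, within the span of Dnm2, so their signals cannot be told apart by gene. miR-199a-5p gave 0.08 and 0.00 untreated and -0.78 and -0.97 treated, a log2 difference of -0.92 ± 0.37 (adjusted p = 0.289, or 0.0169 without the 24 h groups). miR-199a-3p gave 2.00 and 2.04 against 1.51 and 1.41, a difference of -0.56 ± 0.35 (adjusted p = 0.561, or 0.0406 without the 24 h groups). miR-214 gave 1.00 and 0.93 against 0.34 and 0.23, a difference of -0.68 ± 0.49 (adjusted p = 0.561, or 0.0213 without the 24 h groups). In each of the 3 the treated arrays were both below the untreated ones, and both probes were lower. Of the 5 tested names of this group 4 were negative and did not overlap. The fourth of them was miR-199b* at -0.37 ± 0.24, whose gene position was not looked up. The fifth name, miR-214*, was at the floor throughout, and the median of -0.56 was negative under every scaling. 3 of these names also count among the fibroblast markers. All 9 tested fibroblast markers had negative differences, with a median of -0.25 against 0.06 over all 145, 7 of them lower without overlap (28.3% over all 145) and 0 past the threshold. Under quantile normalization miR-125b-5p and miR-21 were at 0.00.

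miR-143, a smooth muscle and fibroblast miRNA, gave -3.08 and -3.07 untreated and -3.82 and -3.82 treated. The treated arrays were both lower, with a log2 difference of -0.75 ± 0.21. Its adjusted p was 0.175, 0.0873 without the 24 h groups and 0.0144 with only the 2 KO groups. miR-145, from the same cluster, was too dim to test.

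miR-221 and miR-222, neighbours on the X chromosome with 1 seed, repress the cell cycle inhibitor p27. miR-221 gave -1.43 and -1.40 untreated and -2.08 and -1.92 treated, a log2 difference of -0.59 ± 0.21 (adjusted p = 0.289). miR-222 gave -3.82 and -4.33 untreated and was at the floor on both treated arrays, a difference of -0.88 ± 0.35 (adjusted p = 0.289). Both were lower on both treated arrays by both of their probes, and neither passed the threshold.

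The miR-17~92 cluster and its paralogs, growth-promoting miRNAs, had 9 of 12 names on the array tested, 7 with negative and 2 with positive differences and 0 past the threshold. Their median was -0.25 against 0.06 over all 145, and 5 were lower (28.3% over all 145) and 2 higher (31.0%) without overlap. miR-93 gave -2.29 and -2.38 untreated and -2.98 and -2.64 treated, a log2 difference of -0.47 ± 0.15 (adjusted p = 0.190), lower on both treated arrays. miR-20a gave -1.57 and -1.53 against -2.07 and -1.74, a difference of -0.35 ± 0.44. miR-106b, which lies with miR-93 within the span of Mcm7 and has the same seed, gave -1.41 and -1.39 against -1.25 and -1.20. Its difference of 0.18 ± 0.16 had the opposite sign to that of miR-93, and turned negative with each of the other scalings. miR-19b and miR-92a were each at -0.01.

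Neighbours within the span of Spaca6 also differed. miR-99b gave -2.79 and -2.70 untreated and -3.38 and -3.25 treated, a log2 difference of -0.57 ± 0.17 (adjusted p = 0.175, or 0.0208 without the 24 h groups), lower on both treated arrays by both probes. let-7e, from the same span, gave 0.06 and 0.25 against 0.37 and 0.33, a difference of 0.19 ± 0.13, which was at or below 0 with the other scalings. miR-99a, a family member of miR-99b, gave -4.20 and -4.11 against -3.50 and -3.65. Its difference of 0.58 ± 0.37 (adjusted p = 0.561, or 0.0169 without the 24 h groups) was opposite in sign to that of miR-99b, and negative with quantile normalization, the all-miRNA percentile and no scaling. miR-100 was at 0.15 ± 0.27, so the family had no common direction.

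On the higher side, miR-146b, a miRNA induced by inflammatory signalling through NF-kappaB, was at the floor on both untreated arrays and gave -3.51 and -3.95 on the treated ones. Its log2 difference was 1.23 ± 0.31 (adjusted p = 0.143, or 0.0169 without the 24 h groups). Its brighter probe, well above background on all 4 arrays, had unscaled signals of 19.1 and 20.8 untreated and 39.8 and 25.1 treated. miR-146a, with the same seed, was at the floor on all 4 KO arrays.

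miR-210, the miRNA most closely tied to hypoxia, was at the floor on both untreated arrays and gave -4.04 and -4.49 on the treated ones, a log2 difference of 0.69 ± 0.18 (adjusted p = 0.143). The unscaled signals of its brighter probe were 15.2 and 16.7 untreated and 23.5 and 15.3 treated, so that before scaling the groups overlapped. miR-423-5p, within the span of Nsrp1, gave -4.74 and -4.94 untreated and -4.34 and -3.74 treated, a difference of 0.80 ± 0.21 (adjusted p = 0.143). miR-129-3p gave -4.47 and -4.59 against -3.41 and -3.69, a difference of 0.98 ± 0.33 (adjusted p = 0.247, or 0.0323 without the 24 h groups). In all 3 both treated arrays were above both untreated ones after scaling, and each was carried by 1 of its 2 probes, the other not being well above background. Before scaling, the summed signals of miR-423-5p were 26.6 and 25.8 untreated and 25.5 and 31.2 treated. Those of miR-129-3p were 32.0 and 32.8 against 48.4 and 32.3. Both overlapped between groups, though the brighter probes alone did not.

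miR-148a, a regulator of DNA methyltransferase 1, gave -4.31 and -4.20 untreated and -3.35 and -3.75 treated, a log2 difference of 0.70 ± 0.24 (adjusted p = 0.249), which was -0.05 with the all-miRNA percentile. Its seed relative miR-152 had a difference of -0.07 ± 0.12. miR-26b gave -2.59 and -2.61 against -2.09 and -2.27 (0.42 ± 0.16, adjusted p = 0.289). miR-26a, which differs from it outside the seed, was at 0.06 ± 0.15 with overlapping groups. miR-301a gave -1.75 and -1.80 against -1.05 and -1.33 (0.59 ± 0.28, adjusted p = 0.439), and miR-350 gave -4.21 and -4.12 against -3.73 and -3.83 (0.38 ± 0.15, adjusted p = 0.289). The differences of miR-26b, miR-301a and miR-350 were negative with quantile normalization, the all-miRNA percentile and no scaling.

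The let-7 family, growth-restraining miRNAs that target Ras and Lin28 genes, shared 1 sign after scaling. All 9 tested members had positive differences between 0.19 and 0.56 and did not overlap between groups (31.0% over all 145), with a median of 0.33 against 0.06 over all 145, and 0 passed the threshold. let-7b gave 0.38 and 0.65 untreated and 0.85 and 1.04 treated (0.43 ± 0.13, adjusted p = 0.175). let-7c gave 0.35 and 0.57 against 0.67 and 0.76 (0.26 ± 0.10, adjusted p = 0.289). let-7i gave 0.38 and 0.53 against 1.05 and 0.97 (0.56 ± 0.29, adjusted p = 0.471, or 0.0208 without the 24 h groups). The treated arrays were higher in each after scaling, but for let-7b and let-7c the groups overlapped by 1 of the 2 probes. let-7a and let-7f had differences of 0.36 ± 0.22 and 0.31 ± 0.20. The direction depends on the scaling: the family median was 0.12 with median scaling, 0.00 with quantile normalization, -0.43 with the all-miRNA percentile and -0.36 with no scaling. The family stood above the median of all miRNAs by 0.16 to 0.38 under these 5 scalings. The members are close in sequence, and how far a probe takes up the RNA of another member was not tested.

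The miR-34 family, known as targets of p53, had 3 of 5 names tested, all with positive differences and without overlap (31.0% over all 145), and 0 past the threshold. miR-34a gave -3.15 and -3.02 untreated and -2.61 and -2.47 treated (0.54 ± 0.41, adjusted p = 0.601). miR-34b-5p gave -4.47 and -4.39 against -3.98 and -3.79 (0.55 ± 0.28, adjusted p = 0.471, or 0.0179 without the 24 h groups). miR-34c gave -3.60 and -3.66 against -3.22 and -3.25 (0.39 ± 0.20, adjusted p = 0.471, or 0.0169 without the 24 h groups). Both treated arrays were higher in each, and the family median of 0.54 became -0.13 with quantile normalization, -0.22 with the all-miRNA percentile and -0.15 with no scaling.

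Other families stayed near the median of all miRNAs. The miR-30 family had 4 of 5 members positive with a median of 0.22, led by miR-30c at 0.33 ± 0.17, and this median was negative with quantile normalization, the all-miRNA percentile and no scaling. The miR-29 family, regulators of collagen genes, had a median of -0.07 over 3 members, and the miR-15/16 seed family a median of 0.02 over 6. Of the latter, miR-195 and miR-497 were at the floor on all KO arrays compared, so the floor sets their differences. They were tested because of their detection in untreated wild-type cells. miR-21, which is known to be abundant in fibroblasts, gave 4.63 and 4.64 untreated and 4.57 and 4.53 treated, a difference of -0.09 ± 0.19. miR-22 and miR-103 were at -0.10 ± 0.14 and -0.01 ± 0.17. 0 members of these families passed the threshold.

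**Figure D3:**
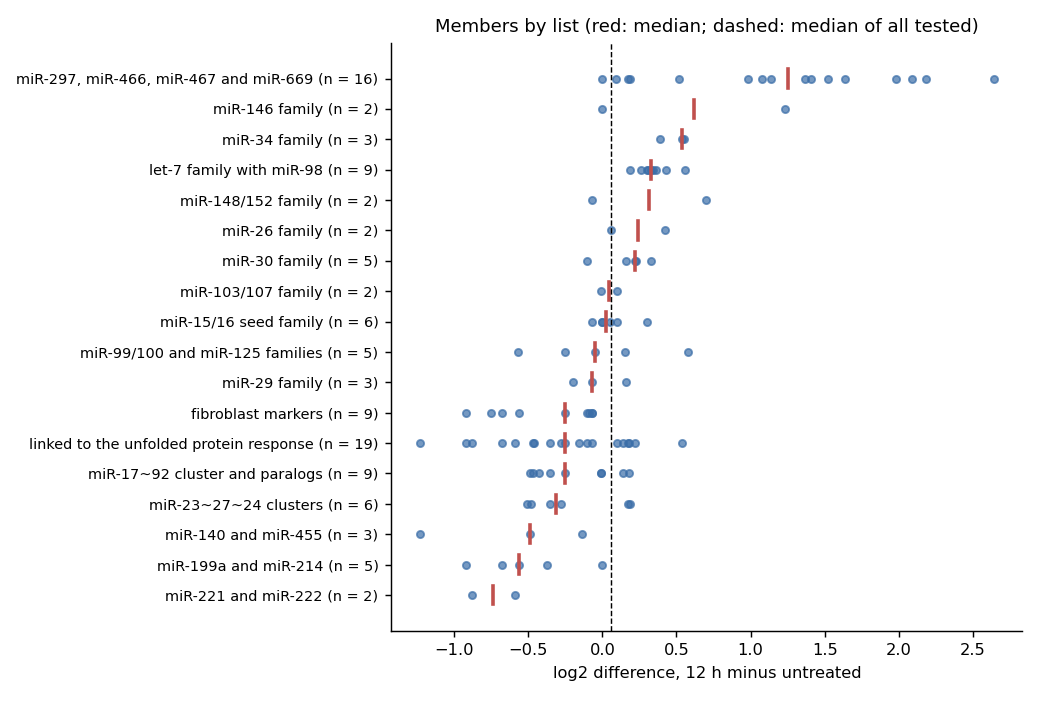
Log2 difference between 12 h tunicamycin and untreated KO cells for each tested member (points) of each list with 2 or more tested members, star strands not shown, with the list median as a red bar and the median of all 145 miRNAs, 0.06, as a dashed line. The let-7 members lie between 0.19 and 0.56, the miR-199a and miR-214 members between -0.92 and 0.00, and the names of the group with miR-466 and miR-669 between 0.00 and 2.64.

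Of 30 miRNAs that earlier studies tied to the unfolded protein response, 19 were tested, 13 with negative and 6 with positive differences, and 1, miR-455, passed the threshold. Their median was -0.25 against 0.06 over all 145, and 13 were lower (28.3% over all 145) and 5 higher (31.0%) without overlap. The list shares miR-93, miR-199a-5p, miR-214, miR-221, miR-222, miR-24 and miR-34a, among others, with the groups above. miR-7a gave -4.49 and -4.50 untreated and was at the floor on both treated arrays (-0.46 ± 0.22, adjusted p = 0.439, or 0.0224 without the 24 h groups). miR-322 and miR-125b-5p were at 0.10 ± 0.28 and -0.25 ± 0.20. miR-211, miR-708 and miR-346 of this list were among the 11 too dim to test.

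Presence and absence gave few further differences. 5 miRNAs were well above background on both untreated and on neither treated array: miR-7a, miR-149, miR-182, miR-214* and miR-484. After treatment miR-7a was at least 1.3-fold lower and miR-149 at least 1.29-fold lower (adjusted p = 0.439 and 0.289). These are group means, taking the higher of the detection level, the miRNA's own value and the floor on the dim side. On the same terms miR-484 was 1.09-fold lower (adjusted p = 0.748). That is no lower bound, as its untreated replicate 2 was at the floor and the groups overlapped. No fold could be given for miR-182 and miR-214*. miR-149 gave -4.29 and -4.71 untreated and was at the floor on both treated arrays. In the other direction 4 were well above background on both treated and on neither untreated array: miR-194, miR-468, miR-669d and miR-877*. miR-194 was at the floor untreated and gave -3.57 and -4.79 treated, at least 1.71-fold higher (adjusted p = 0.561).

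The other 3 rested on replicate 2 of the treated group. miR-468 was at the floor on both untreated arrays and gave -3.65 and -0.30 on the treated ones (2.99 ± 1.67, at least 7.92-fold higher, adjusted p = 0.532). miR-877* gave -3.69 and -4.70 against -3.72 and 1.07 (2.87 ± 2.23, 7.33-fold higher by group means, adjusted p = 0.608). That fold is no lower bound, and treated replicate 1 lay within the untreated range. miR-669d was at the floor on 3 of the arrays and gave -3.00 on treated replicate 2 (1.97-fold higher by group means, adjusted p = 0.615). With treated replicate 1 at the floor, this fold is no lower bound either. The untreated and treated ranges of miR-877* and miR-669d overlapped.

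The 2 treated arrays differed by under 0.5 for 118 of the 145 miRNAs, but 21 were over 1 higher on replicate 2 and 3 over 1 lower, while in untreated KO cells 1 differed by over 1. Of the 21, 13 are miR-466, miR-467 or miR-669 names, which come largely from a repeated cluster in the Sfmbt2 gene. miR-466g gave -3.62 and -4.14 untreated and -4.96 and 1.38 treated, so that its 2 treated arrays lay on either side of the untreated ones. miR-574-3p did the same, with -3.71 and -4.01 untreated and -4.96 and 1.51 treated. miR-207 was at the floor on all KO arrays compared but treated replicate 2, where it was 0.87. For the 16 tested names of the group formed by miR-466, miR-467, miR-669 and miR-297, a list chosen with values known, 15 differences were positive and the median was 1.26. That median was 0.00 with treated replicate 1 alone and 2.64 with treated replicate 2 alone, and the summed scaled signal of the group was 1.31 and 1.17 untreated and 1.15 and 18.0 treated. These names often match repeated sequence, so probes may share RNA.

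The gap between the 2 arrays was not limited to KO cells. Of the 21 miRNAs over 1 higher on replicate 2, 19 were so in wild-type cells at 12 h and 12 in KO cells at 24 h. Across the 145 miRNAs, which are not independent replicates, the replicate difference in KO at 12 h had a correlation of 0.951 with that in wild-type at 12 h, and of 0.919 over the 129 without that group. All 4 of these 12 h arrays were on 1 slide, and the replicate numbers went with the scan. The part of the scan in this gap was not tested.

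**Figure D4:**
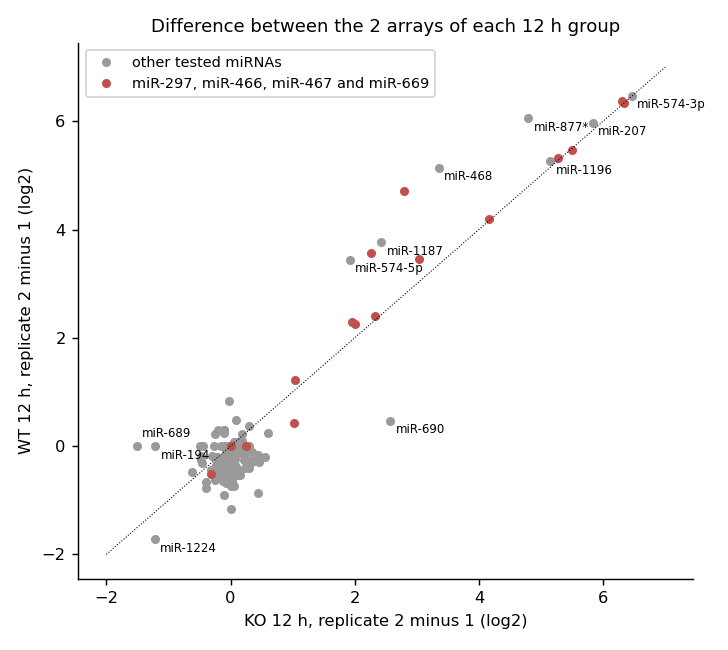
Log2 scaled signal of replicate 2 minus that of replicate 1 at 12 h, in KO cells (horizontal axis) and wild-type cells (vertical axis), for the 145 tested miRNAs, with the line of equality dotted and the group of miR-466, miR-467, miR-669 and miR-297 names in red. miR-466g, at 6.34 in KO and 6.33 in wild-type cells, lies near the line, while miR-669c (2.80 and 4.71), miR-468 (3.35 and 5.14) and miR-690 (2.57 and 0.47) lie off it.

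Set beside the wild-type cells, the KO cells differed in their 12 h response for 33 of 145 miRNAs by the interaction term of the same limma fit (22.8%), 30 with the higher response in KO (20.7%) and 3 with the lower (2.07%). The median difference of responses was 0.49 over all 145, from median responses of 0.06 in KO and -0.32 in wild-type cells. With median scaling, where the median difference was 0.07, 3 miRNAs passed, 2 higher and 1 lower, and with quantile normalization 1 passed, which was lower. The 3 with the lower response in KO were miR-455 (-1.23 ± 0.09, adjusted p = 0.000407), miR-24-1* (-0.56 ± 0.13, adjusted p = 0.0216) and miR-221 (-1.06 ± 0.30, adjusted p = 0.0443). miR-455 was at the floor on all 4 wild-type arrays, and miR-24-1* on all but 1 of them, where it was -4.86, so that a fall in wild-type cells could not be seen for either. miR-221 had a response of -0.59 in KO and 0.47 in wild-type cells. The count was 11 without KO 12 h replicate 2, 10 and 18 without untreated KO replicates 1 and 2, 19 without either untreated wild-type array, and 20 without wild-type 12 h replicate 2.

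Among those with the higher response in KO, miR-26a and miR-26b had differences of 1.27 ± 0.22 and 1.36 ± 0.23 (adjusted p = 0.00927 for both), from responses of 0.06 and 0.42 in KO and -1.21 and -0.94 in wild-type cells. miR-148a differed by 2.04 ± 0.34 (adjusted p = 0.00927), from 0.70 in KO and -1.34 in wild-type cells. The miR-199a and miR-214 members were negative in both genotypes, and no difference of responses passed the threshold for miR-199a-5p (0.19, adjusted p = 0.880), miR-199a-3p (0.71, adjusted p = 0.418) or miR-214 (0.81, adjusted p = 0.502).

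**Figure D5:**
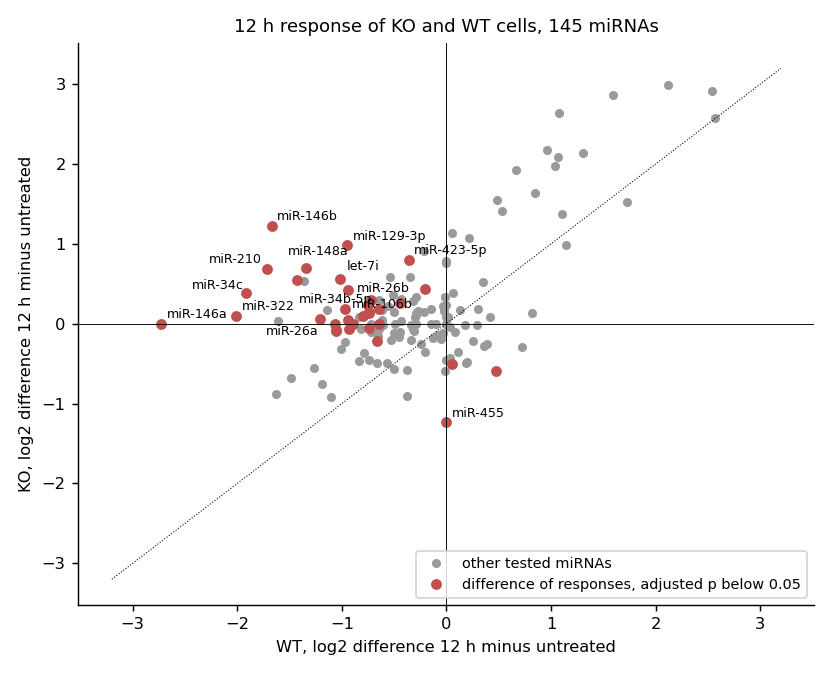
Log2 difference between 12 h tunicamycin and untreated cells in wild-type (horizontal axis) and KO cells (vertical axis) for the 145 tested miRNAs, red where the difference of the responses had an adjusted p below 0.05, with the line of equal response dotted. Of the 33 red points 30 lie above the line and 3 below it.

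KO cells at 24 h were compared with the same untreated arrays, so the values are given side by side only. miR-455 stood at -1.23 at both times, again at the floor. miR-199a-5p was at -0.92 ± 0.37 at 12 h and -1.43 ± 0.37 at 24 h, and miR-214 at -0.68 ± 0.49 and -1.26 ± 0.49. miR-34a was at 0.54 ± 0.41 and 1.43 ± 0.41, and miR-34b-5p at 0.55 ± 0.28 and 1.23 ± 0.28. miR-146b was at 1.23 ± 0.31 and 0.52 ± 0.31. miR-34c was at 0.39 ± 0.20 and 1.09 ± 0.20, and let-7b at 0.43 ± 0.13 and 0.71 ± 0.13. miR-455 passed the threshold at both times. miR-34c and let-7b passed at 24 h only (limma with all 6 groups, adjusted p = 0.041 for each), and the other 5 at neither.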

How the data were processed

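Total RNA of 12 cultures was labelled with Cy3 and hybridised to 1-colour Agilent miRNA arrays, per the labels, and read with Agilent Feature Extraction 10.7.1.1, per the submitters' processing notes. The deposited spot values are intensity, background-subtracted and not scaled between arrays, per the file headers. The authors' deposited table gives values in log2, which matched the software's total gene signal without scaling, with column medians from 5.437 to 6.901. Other deposited columns hold flags of 0 or 1. As array data they carry no counts, and 2 arrays per group limit the precision.

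Mean processed signals of a miRNA's probes, without control and outlier-flagged spots, were summed. The sum was scaled by the 75th percentile of the array, computed from 82 miRNAs detected on all 12 arrays, and values under the floor were set to it (-4.96 in log2). Detection, called well above background, asked for that flag on at least 50 percent of the spots of 1 probe. miRNAs detected on both arrays of some group, 145 in all, were fitted with limma 3.58.1 in R 4.3.3 on the 6 group means (residual degrees of freedom 6, prior 1.027), with Benjamini-Hochberg adjustment over 145 and a threshold of 0.05. The p-values cover the spread between the 2 experiments of each group. The named miRNAs are every miRNA past the threshold, the 10 with the smallest p each way, up to 4 members per list by mean level, those well above background on both arrays of 1 KO group and neither of the other, and the 10 highest over the KO arrays. Values of miR-99a, miR-27b, miR-7a, let-7e, miR-362-5p, miR-466g, miR-574-3p, miR-207 and miR-690 were added after they were seen. Members and lists were chosen with earlier results of these data known. Of other lists, the tRNA-linked names had 1 tested member, miR-720 (0.09), the star strands 11 (median -0.04), the miR-181 family 1 (-0.10), the miR-103/107 family 2 (median 0.05) and miR-140 with miR-455 3 (median -0.49).

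Alternatives covered background correction, measure, scaling, floor, filter, spread and left-out arrays. Normexp (offset 50) used the median spot and background signals. On simulated data for the 12 h KO comparison with 145 miRNAs, log2 changes of 1 and 2 were called in 67.2 and 87 percent, while 2.83 percent of the calls were of miRNAs left unchanged. The simulation changed 40 miRNAs and used independent noise with the same spread in every group and no floor. The data differ in all of these, so the rates cannot be carried over to the calls reported here.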

Additional observations from a re-analysis of the deposited data

Results flagged for a closer look

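The 12 h responses of KO and wild-type cells differed for 25 of the 71 named miRNAs (limma interaction term, adjusted p below 0.05). Over all 145 the count was 33 (22.8%), or 3 with median scaling and 1 with quantile normalization. Some of the named were chosen by a small p in KO cells at 12 h, a comparison that is part of this term. Values are the KO response minus the wild-type response on the log2 scale, around a median of 0.49 over all 145 miRNAs.

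The differences with the lower response in KO were those of miR-455 (-1.23), miR-221 (-1.06) and miR-24-1* (-0.56). The wild-type arrays were at the floor for miR-455, and all but 1 for miR-24-1*. Of the miR-146 family, miR-146b differed by 2.90 and miR-146a by 2.73, and the hypoxia-linked miR-210 by 2.42. These 3 were at the floor in untreated KO cells. miR-146a was at the floor on the treated KO arrays too, so a fall in KO cells could not be seen. Its difference comes from the wild-type response of -2.73 alone. Of the miR-34 family, miR-34c differed by 2.31 and miR-34b-5p by 1.97. miR-322 differed by 2.12, its seed relative miR-16 by 0.99, and miR-107 by 0.90.

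miR-148a differed by 2.04 and miR-152, with the same seed, by 0.85. miR-129-3p differed by 1.93, miR-26b by 1.36, miR-26a by 1.27, miR-423-5p by 1.16 and miR-106b by 1.14. Of the let-7 family, let-7i differed by 1.58, let-7c by 0.70 and let-7b by 0.63. miR-30e and miR-21 each differed by 0.97, miR-125a-5p by 0.69 and miR-500 by 0.44. For miR-146a, miR-16, miR-26a, miR-322, miR-107, miR-152, miR-125a-5p and miR-21 the KO response itself lay between -0.09 and 0.10.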

How the results depend on the processing

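For tunicamycin at 12 h in KO cells the count of 1 became 0 with normexp, with normexp without spots of outlying local background (an alternative chosen after seeing the data), with the deposited table (18 at an unadjusted p below 0.05) and with the 82 miRNAs above background on all arrays (10 unadjusted). Both normexp fits had 0 and 8 unadjusted. It became 18 with no scaling (0 higher, 18 lower), 24 with array quality weights, 16 without the 24 h groups, 4 with only the groups compared and with the floor doubled, and 2 with robust spread and with scan date as a random block. Leaving out 1 array gave 1 to 14. miR-455 turned to 0.07 with normexp without outlying background spots. It was no longer past the threshold with normexp, the deposited table or total gene signal, whose 1 call was another miRNA. The cause was not tested.

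For the KO response minus the wild-type response the count of 33 became 0 with both normexp fits, the deposited table and the all-miRNA percentile, 1 with total gene signal and with quantile normalization, 3 with median scaling, 13 with no scaling, 19 with the 82 miRNAs above background on all arrays and 6 with no filter. At an unadjusted p below 0.05 the 4 counts of 0 were 2, 20, 11 and 8. Leaving out 1 array gave 10 to 48. The fit without the 24 h groups is here the same as the fit of only the groups compared.

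Replicate numbers did not pair untreated with treated arrays: the deviations of untreated KO and KO at 12 h had a correlation of -0.359. With the replicate block 2 and 33 miRNAs passed, and with the numbers crossed, chosen after seeing the data, 1 and 31.

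Of 71 named miRNAs, the difference at 12 h changed sign for 11 with median scaling, 22 with quantile normalization, 27 with the all-miRNA percentile and 26 with no scaling, for 30 with normexp and 20 without its outlying spots, for 10 with total gene signal, and for 32 of the 66 with a value in the deposited table. Signal over background, through the floor, limits falls of dim miRNAs.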
